A study of Homo sapiens with 14 samples.

Results

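The sites described here are all adenosine positions listed as read as guanosine in 4 RNA-seq libraries of HEK293T cells, 2 with the editor dCas13d-ADAR and an EZH2 guide and 2 with REPAIRv2 and a guide labelled EZH2_A22. Every listed site was taken, keyed by chromosome and position, with no minimum level. The 4 lists held 8768 distinct sites, out of 26172 in all 14 libraries of the series. The dCas13d-ADAR EZH2 lists contributed 8746 of these sites and the REPAIRv2 EZH2_A22 lists 159. The series compares RNA base editors in this human embryonic kidney line, which transfects easily. The NT libraries of the same editors, 2 each for dCas13d-ADAR and REPAIRv2, are used below as a check of the guide. All of these cells carried an editor. The labels leave NT and A22 unexplained, and do not name the EZH2 target base or say how editor and guide were delivered and in what amounts. The guides of the 2 groups bear different labels, so editor and guide cannot be told apart within the EZH2 libraries.

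ADAR enzymes deaminate adenosine in double-stranded RNA to inosine, which pairs like guanosine and is read as such in sequencing. RNA base editors tether an ADAR deaminase domain to a Cas13 protein that has lost its RNA-cutting activity, and a guide RNA brings the fusion to a chosen transcript. The domain can also act on other transcripts, which gives edited sites away from the target. REPAIRv2 joins an inactive Cas13b to an ADAR deaminase domain altered to edit fewer such sites, while the name dCas13d-ADAR pairs an inactive Cas13d, a smaller member of the Cas13 family, with an ADAR domain that the labels do not specify. EZH2 encodes the histone methyltransferase of a Polycomb repressive complex.

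Each list gave a site's chromosome, its position and its A-to-G rate, the fraction of reads with guanosine, called the editing level here. Positions are as listed, on hg19 (GRCh37) per the submitters' processing notes. No sequence or annotation of that build was used, so the strand, gene, transcript region and flanking bases of a site were not analysed here. The lists hold no read counts, so the depth of a library or site is unknown, and a position missing from a list may lack editing, enough editing to be listed or enough reads. Whether the replicates of a group were separate cultures is not stated in the labels, so a p-value reflects the spread of these libraries, which may be technical. With 2 libraries against 2, an exact permutation test has 6 arrangements and cannot give a two-sided p below 0.333.

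The dCas13d-ADAR lists were far longer than the REPAIRv2 lists with EZH2 guides, while the median levels of the whole lists were close. The dCas13d-ADAR EZH2 libraries listed 5834 and 5793 sites, against 87 and 101 sites in the REPAIRv2 EZH2_A22 libraries. The groups were widely separated, and the ratio of geometric means was 62.0 (two-sided exact permutation p = 0.333). The median level was 0.267 and 0.263 in the dCas13d-ADAR libraries, against 0.261 and 0.250 in the REPAIRv2 libraries, a difference of means of 0.00948 (exact permutation p = 0.333). Each list holds only positions that passed an unknown listing threshold, and the medians cover sets of sites that differ. Close medians therefore do not mean like levels at the same sites, which are compared below. Over only those sites that both replicates of a group list, the difference in median was 0.0476 and that in the share of sites at 0.5 or more was 7.46 percentage points, both higher in dCas13d-ADAR. The interquartile range was 0.2 to 0.357 in dCas13d-ADAR replicate 1 and 0.209 to 0.317 in REPAIRv2 replicate 1. In replicate 2 it was 0.2 to 0.35 in both editors, so the upper quartile was lower in REPAIRv2 in replicate 1 and equal in replicate 2. Sites edited at 0.5 or more made up 6.36% and 6.51% of the dCas13d-ADAR lists, against 3.45% (3 sites, 95% Clopper-Pearson interval 0.717% to 9.75%) and 4.95% (5 sites, 1.63% to 11.2%) of the REPAIRv2 lists. The difference was 2.23 percentage points (exact permutation p = 0.333), and the intervals of the REPAIRv2 libraries contain the dCas13d-ADAR shares. Intervals here and below cover the counting of sites only.

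**Figure D1:**
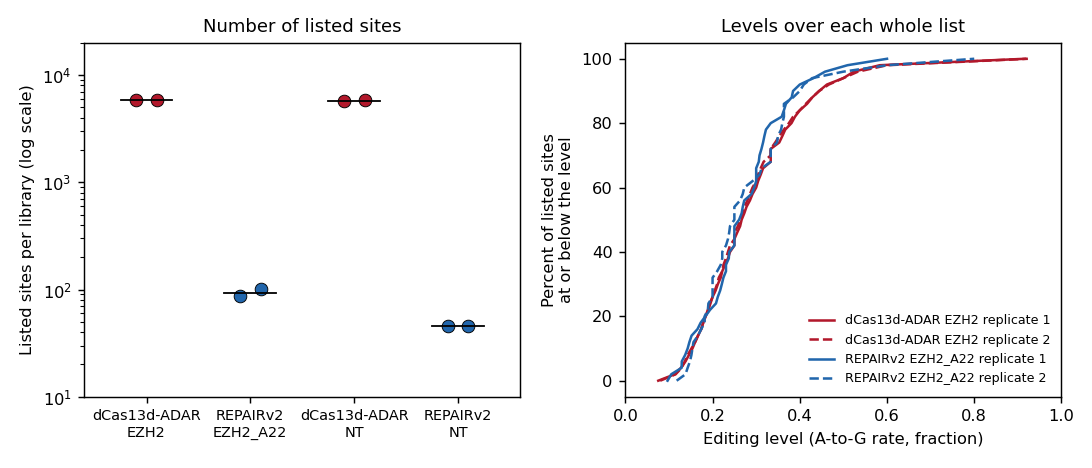
Left, the number of listed sites per library on a log scale, with a point per library and a line at the geometric mean of each group of 2. Right, the percent of each list at or below a given editing level (fraction). The dCas13d-ADAR EZH2 libraries lie at 5834 and 5793 sites and the REPAIRv2 EZH2_A22 libraries at 87 and 101, and the level curves run close together up to about 0.3.

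The same editors with NT guides also differed widely in list length. The dCas13d-ADAR NT libraries listed 5730 and 5795 sites, against 46 and 46 in the REPAIRv2 NT libraries, a ratio of 125.3. The ratio with EZH2 guides was 0.495 times that with NT guides, and this difference was not detected when guide labels were permuted within each editor (two-sided exact permutation p = 0.278, 36 arrangements, smallest possible 0.0556). Both REPAIRv2 EZH2_A22 lists (87 and 101 sites) were nevertheless longer than both REPAIRv2 NT lists, while the dCas13d-ADAR lists were of like length with either guide.

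Most REPAIRv2 sites were also dCas13d-ADAR sites, and few dCas13d-ADAR sites were REPAIRv2 sites. Of the 159 distinct REPAIRv2 EZH2_A22 sites, 137 were in at least 1 dCas13d-ADAR EZH2 list, which is 86.2% of the REPAIRv2 sites (95% Clopper-Pearson interval 79.8% to 91.1%) and 1.57% of the 8746 dCas13d-ADAR sites. Both dCas13d-ADAR lists held 109 of the 159 and 1 of them held 28. The 29 sites in both REPAIRv2 lists were in both dCas13d-ADAR lists in 25 cases (86.2%, 68.3% to 96.1%), while the 130 sites in 1 REPAIRv2 list were in both dCas13d-ADAR lists in 84 cases (64.6%, 55.8% to 72.8%).

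Replicate lists themselves overlapped only in part. The 2 dCas13d-ADAR lists had 2881 sites in common, 49.4% of replicate 1 and 49.7% of replicate 2. The 2 REPAIRv2 lists had 29 in common, 33.3% of replicate 1 and 28.7% of replicate 2. A REPAIRv2 library therefore found more of its sites in either dCas13d-ADAR list, at 75.9% to 80.5% over the 4 pairs of libraries, than in its own replicate. The dCas13d-ADAR lists are far longer than the replicate lists, so these shares are not on an equal footing. At sites in both lists of a group, the median absolute difference in level between replicates was 0.0614 for dCas13d-ADAR (2881 sites) and 0.0483 for REPAIRv2 (29 sites), and the levels correlated across sites at r = 0.644 and r = 0.474, sites of 1 pair of libraries each.

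Sites that REPAIRv2 also listed were among the more highly edited sites of dCas13d-ADAR. In dCas13d-ADAR replicate 1 the 122 sites shared with a REPAIRv2 list had a median level of 0.444, against 0.267 for the other 5712. In replicate 2 the 124 shared sites had a median of 0.429, against 0.263 for the other 5669. The shared median exceeded 90.6% and 88.8% of the other sites in the 2 libraries. Among the 2881 sites in both dCas13d-ADAR lists, the median of the mean level was 0.489 for the 25 in both REPAIRv2 lists, 0.430 for the 84 in 1 REPAIRv2 list and 0.285 for the 2772 in none. No test was made, and the read depth of these sites, which also bears on whether a site is listed, is unknown.

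The share of dCas13d-ADAR sites that REPAIRv2 listed was larger at each higher step of dCas13d-ADAR level. Of the 519 sites at a mean level of 0.1 to 0.2 in both dCas13d-ADAR libraries, 1 was in a REPAIRv2 list (0.193%, 95% Clopper-Pearson interval 0.00488% to 1.07%). At 0.2 to 0.3 it was 15 of 1041 sites (1.44%), at 0.3 to 0.4 it was 21 of 753 (2.79%) and at 0.4 to 0.5 it was 36 of 375 (9.6%). At 0.5 to 0.6 it was 17 of 135 (12.6%), and at 0.6 or more it was 19 of 58 (32.8%, 21.0% to 46.3%). The intervals of the lowest and the highest step did not overlap, but cover the counting of sites, not spread between libraries or read depth. The REPAIRv2 levels did not follow the same order. Their median was 0.250 for the 109 sites in both dCas13d-ADAR lists, 0.3 for the 28 in 1 list and 0.301 for the 22 in none. Of these sites, 25, 2 and 2 in turn were in both REPAIRv2 lists, and the rest hold the level of 1 REPAIRv2 library. The sets thus differ in make-up, and their order was not tested.

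**Figure D2:**
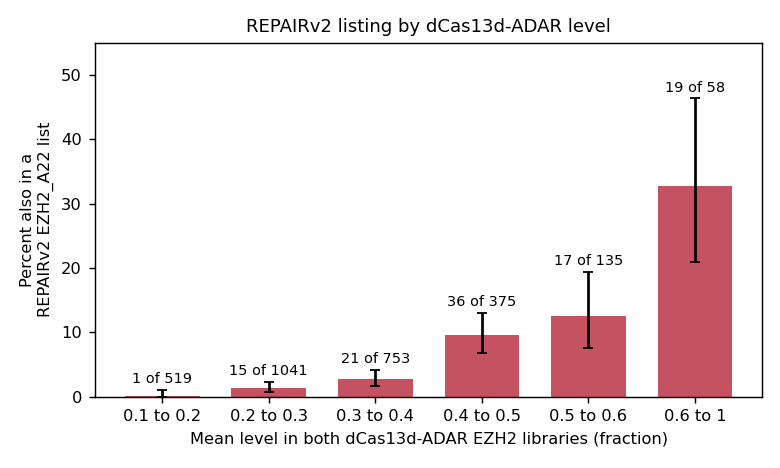
Percent of sites listed by at least 1 REPAIRv2 EZH2_A22 library, for the 2881 sites in both dCas13d-ADAR EZH2 lists, by their mean dCas13d-ADAR level (fraction). Bars show the percent, error bars the 95% Clopper-Pearson interval and labels the counts, which run from 1 of 519 in the lowest step to 19 of 58 in the highest.

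At the 25 sites listed in all 4 libraries, dCas13d-ADAR gave higher levels than REPAIRv2. The mean over these sites was 0.513 and 0.518 in the dCas13d-ADAR libraries, against 0.251 and 0.263 in the REPAIRv2 libraries. The libraries of an editor lay close together and the editors far apart, by 0.259 (two-sided exact permutation p = 0.333, the smallest possible). The group mean was higher in dCas13d-ADAR at 25 of 25 sites, and at 24 (96% of those tested) both dCas13d-ADAR levels lay above both REPAIRv2 levels. The ratio of REPAIRv2 to dCas13d-ADAR level had a median of 0.490 and ran over sites from 0.253 to 0.755. Across the 25 sites the mean levels of the editors correlated at r = 0.776 and Spearman's rho = 0.737, as a description of 4 libraries that share these sites.

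Tested on log2 odds of the level in limma's moderated test, 21 of the 25 sites (84%) showed a higher dCas13d-ADAR level at an adjusted p below 0.05, 0 were lower, and 22 had an unadjusted p below 0.05. The median difference over the 25 was 1.60 log2 units of odds, and limma pooled the spread so fully that every site had the same SE of 0.52. The p-values of single sites thus draw on spread borrowed across the 25 sites of the same 4 libraries. These sites are not further replicates of an editor. Fewer calls were made with a library left out, in fits that test the sites listed in all 3 libraries left. Without dCas13d-ADAR replicate 1, limma called 5 of 27 sites, without dCas13d-ADAR replicate 2 it called 3 of 25, without REPAIRv2 replicate 1 it called 0 of 73 (23 at an unadjusted p below 0.05) and without REPAIRv2 replicate 2 it called 0 of 61 (30 at an unadjusted p below 0.05). The same fits on the 25 sites alone, chosen after seeing the data, called 8, 3, 0 (13 at an unadjusted p below 0.05) and 8 of 25 in the same order, with 24 or 25 of the 25 higher in dCas13d-ADAR. In limma on the 111 sites in at least 3 of the 4 libraries, 0 were called, with 39 at an unadjusted p below 0.05, a smallest adjusted p of 0.0805 and 104 of 111 higher in dCas13d-ADAR.

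**Figure D3:**
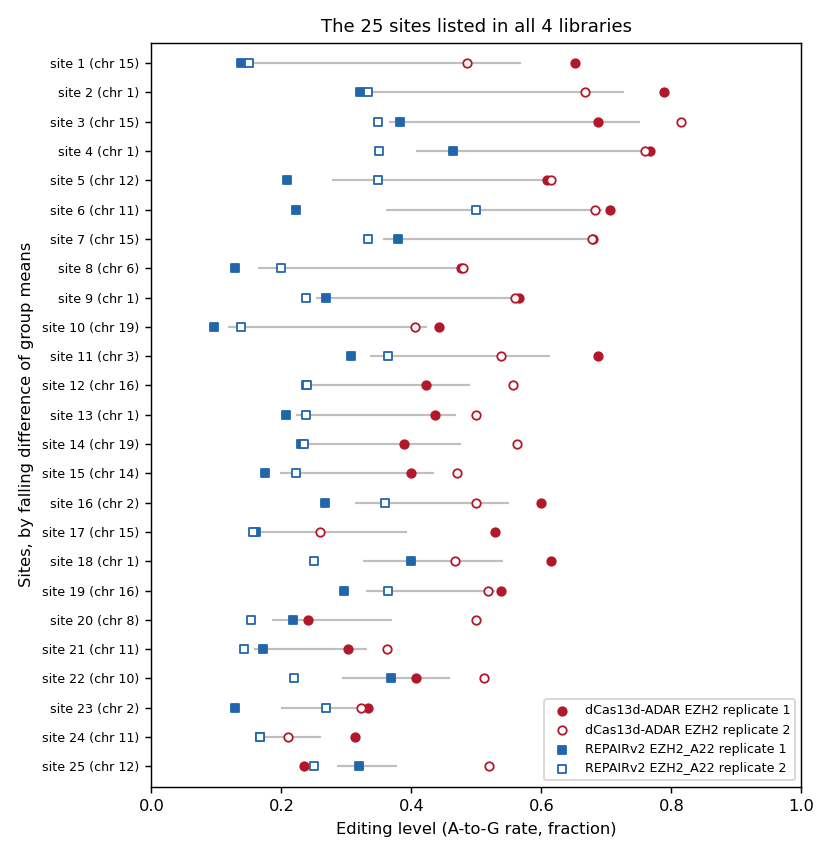
Editing level (fraction) at each of the 25 sites listed in all 4 libraries, ordered by the difference of group means, with the chromosome of each site. Circles are dCas13d-ADAR EZH2 libraries, squares are REPAIRv2 EZH2_A22 libraries, filled for replicate 1 and open for replicate 2, and grey lines join the group means. Circles lie right of both squares at 24 sites, and in the bottom row they overlap.

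The 25 sites lay on 12 chromosomes, and the closest pair, both on chromosome 11, was 722566 bases apart. The largest difference was at position 72491603 on chromosome 15, with levels of 0.651 and 0.486 in dCas13d-ADAR cells, against 0.138 and 0.150 in REPAIRv2 cells (2.89 log2 units of odds, SE 0.52, limma adjusted p = 2.20e-05). This site also had the lowest ratio of REPAIRv2 to dCas13d-ADAR level. Position 235277158 on chromosome 1 had levels of 0.788 and 0.667 in dCas13d-ADAR cells, against 0.321 and 0.333 in REPAIRv2 cells (2.43 units, limma adjusted p = 0.000175). Position 79614895 on chromosome 15 had 0.688 and 0.815 in dCas13d-ADAR cells, against 0.382 and 0.348 in REPAIRv2 cells (2.38 units, limma adjusted p = 0.000175). The highest mean of both editors was at position 156209533 on chromosome 1, with 0.767 and 0.760 in dCas13d-ADAR cells, against 0.464 and 0.350 in REPAIRv2 cells. At these 4 sites even the lower dCas13d-ADAR level was well above the higher REPAIRv2 level.

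Next in size came position 48362360 on chromosome 12, at 0.609 and 0.615 in dCas13d-ADAR cells, against 0.208 and 0.348 in REPAIRv2 cells. Position 65048599 on chromosome 11 had 0.706 and 0.682 in dCas13d-ADAR cells, against 0.222 and 0.5 in REPAIRv2 cells, the widest spread between REPAIRv2 replicates among the 25. Position 75632437 on chromosome 15 had 0.679 and 0.677 in dCas13d-ADAR cells, against 0.379 and 0.333 in REPAIRv2 cells. The dCas13d-ADAR replicates of these 3 sites agreed closely and the groups did not overlap. At position 111214853 on chromosome 6 the levels were 0.476 and 0.480 in dCas13d-ADAR cells, against 0.129 and 0.2 in REPAIRv2 cells. Position 150238125 on chromosome 1 had 0.565 and 0.560 in dCas13d-ADAR cells, against 0.269 and 0.238 in REPAIRv2 cells. The lowest REPAIRv2 mean of the 25 was at position 40328475 on chromosome 19, with 0.442 and 0.405 in dCas13d-ADAR cells, against 0.0968 and 0.138 in REPAIRv2 cells (2.39 units, limma adjusted p = 0.000175). The groups did not overlap at these 3 either.

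The middle group of differences, all past the limma threshold, lay between 0.235 and 0.277. Position 133331383 on chromosome 3 had 0.688 and 0.538 in dCas13d-ADAR cells, against 0.308 and 0.364 in REPAIRv2 cells. Position 28112900 on chromosome 16 had 0.423 and 0.556 in dCas13d-ADAR cells, against 0.238 and 0.240 in REPAIRv2 cells. Position 115273010 on chromosome 1 had 0.436 and 0.5 in dCas13d-ADAR cells, against 0.207 and 0.238 in REPAIRv2 cells. The groups were apart at each. Position 1227724 on chromosome 19 had 0.389 and 0.562 in dCas13d-ADAR cells, against 0.231 and 0.235 in REPAIRv2 cells. Position 53184956 on chromosome 14 had 0.4 and 0.471 in dCas13d-ADAR cells, against 0.174 and 0.222 in REPAIRv2 cells. Position 203160483 on chromosome 2 had 0.6 and 0.5 in dCas13d-ADAR cells, against 0.267 and 0.360 in REPAIRv2 cells. At none of these did a REPAIRv2 library reach the lower dCas13d-ADAR library. Position 40328683 on chromosome 15 had 0.528 and 0.259 in dCas13d-ADAR cells, a wide spread, against 0.161 and 0.156 in REPAIRv2 cells.

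The smallest differences ran from 0.0926 to 0.216. Position 38042099 on chromosome 1 had 0.615 and 0.467 in dCas13d-ADAR cells, against 0.4 and 0.250 in REPAIRv2 cells. Position 57505169 on chromosome 16 had 0.538 and 0.517 in dCas13d-ADAR cells, against 0.296 and 0.364 in REPAIRv2 cells (limma adjusted p = 0.0340). Position 48890247 on chromosome 8 had 0.241 and 0.5 in dCas13d-ADAR cells, against 0.217 and 0.154 in REPAIRv2 cells. The lower dCas13d-ADAR library at this last site was close to the REPAIRv2 range. Position 65771165 on chromosome 11 had 0.302 and 0.362 in dCas13d-ADAR cells, against 0.171 and 0.143 in REPAIRv2 cells, and was the smallest difference in level that passed. The other 4 sites did not pass the limma threshold. Position 76970657 on chromosome 10 had 0.406 and 0.511 in dCas13d-ADAR cells, against 0.368 and 0.219 in REPAIRv2 cells (limma adjusted p = 0.0561). Position 74438358 on chromosome 2 had 0.333 and 0.323 in dCas13d-ADAR cells, against 0.129 and 0.269 in REPAIRv2 cells (limma adjusted p = 0.0576). The groups at both lay apart by a narrow margin. Position 102962548 on chromosome 11 had 0.312 and 0.211 in dCas13d-ADAR cells, against 0.167 and 0.167 in REPAIRv2 cells (limma adjusted p = 0.148). Position 56365712 on chromosome 12 had 0.235 and 0.520 in dCas13d-ADAR cells, against 0.320 and 0.250 in REPAIRv2 cells, the overlapping site (limma adjusted p = 0.307).

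The NT libraries of the same editors did not choose these sites, and those of REPAIRv2 listed only some of them. The dCas13d-ADAR NT libraries listed 24 and 25 of the 25, against 8 and 11 in the REPAIRv2 NT libraries, 14 of the 25 in at least 1 of these. Over the sites it listed, a dCas13d-ADAR NT library had a mean of 0.494 or 0.492, and the dCas13d-ADAR EZH2 libraries averaged 0.519 and 0.515 at the same sites. The REPAIRv2 NT libraries had means of 0.250 and 0.256 over the sites each listed, where the REPAIRv2 EZH2_A22 libraries averaged 0.309 and 0.279. At the 11 sites listed in all 4 NT libraries, 5 of which were among the 25, the mean was 0.563 and 0.618 in dCas13d-ADAR NT cells, against 0.272 and 0.282 in REPAIRv2 NT cells, a difference of 0.313 (two-sided exact permutation p = 0.333, the smallest possible). At 10 of the 11 (90.9%) both dCas13d-ADAR NT levels lay above both REPAIRv2 NT levels. The difference at common sites was thus 0.313 with NT guides and 0.259 with EZH2 guides, over sets that share 5 sites.

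The difference was smaller where fewer libraries listed a site. In the 4 pairings of a dCas13d-ADAR with a REPAIRv2 library, which had 66 to 81 sites in common, dCas13d-ADAR minus REPAIRv2 was 0.178 to 0.196 on average. Among the 84 sites in both dCas13d-ADAR lists and 1 REPAIRv2 list, 79 were higher in dCas13d-ADAR and 5 lower, at mean levels of 0.436 in dCas13d-ADAR cells and 0.260 in REPAIRv2 cells. Among the 28 sites in 1 dCas13d-ADAR list and at least 1 REPAIRv2 list, 16 were higher, 10 lower and 2 equal, at mean levels of 0.348 in dCas13d-ADAR cells and 0.296 in REPAIRv2 cells. Group means were taken over the libraries that listed a site, so an unlisted library, whatever its level, did not enter. The bearing of this on the smaller difference was not tested.

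Most of the highly edited dCas13d-ADAR sites were in no REPAIRv2 EZH2_A22 list, though a smaller share than of all sites in both dCas13d-ADAR lists. Of the 58 sites at a mean level of 0.6 or more in both dCas13d-ADAR EZH2 libraries, 39 (67.2%) were in neither REPAIRv2 EZH2_A22 list, against 2772 of all 2881 sites in both dCas13d-ADAR lists (96.2%). Of the 39, 4 were in a REPAIRv2 NT list. Both dCas13d-ADAR NT libraries listed 26 of the 39, and 33 were in a list of REPAIR.t1, another editor of the series. The same shares over all 2881 sites are not given here, so these counts do not set the 39 apart. The 10 highest ran from a mean of 0.674 to 0.736. The first, position 241654417 on chromosome 2, had 0.571 and 0.9 and was in no other list of the series. The second, position 2304082 on chromosome 7, had 0.7 and 0.769, and the third, position 48713401 on chromosome 8, had 0.733 and 0.733. Those 2 had replicates in close agreement, unlike the first, and both dCas13d-ADAR NT libraries listed them.

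The next were position 50314663 on chromosome 19, at 0.652 and 0.789, and position 172195559 on chromosome 5, at 0.762 and 0.667. Position 6423935 on chromosome 11 had 0.667 and 0.75. Position 195778213 on chromosome 3 had 0.917 and 0.5, and it is the only 1 of the 10 in a REPAIRv2 NT list, at 0.727. The last 3 were position 35796553 on chromosome 22, at 0.679 and 0.714, position 121437104 on chromosome 10, at 0.739 and 0.611, and position 54471601 on chromosome X, at 0.643 and 0.706. Of the 10, 9 were in both dCas13d-ADAR NT lists, 8 in at least 1 REPAIR.t1 list and 0 in a list of DECOR, the remaining editor of the series. Such shares over all sites in both dCas13d-ADAR EZH2 lists are not given here. The DECOR libraries bore the guide label MALAT1 and had reads of 62 and 160 cycles, against 25 and 97 in all other libraries. Editor, guide and read length therefore cannot be told apart in comparisons with DECOR.

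In the other direction, 22 REPAIRv2 EZH2_A22 sites were in no dCas13d-ADAR EZH2 list, and 20 of these were in 1 REPAIRv2 list alone. The 2 in both were position 109242902 on chromosome 1, at 0.292 and 0.312, and position 180670790 on chromosome 5, at 0.194 and 0.184. The site on chromosome 1 was also in 1 dCas13d-ADAR NT list, at 0.333, and in 2 REPAIR.t1 lists, while that on chromosome 5 was in no other list of the series. Of the 22, 6 were in a dCas13d-ADAR NT list, 9 in a REPAIR.t1 list, 6 in a DECOR list and 7 in no other list at all, and 4 had a dCas13d-ADAR EZH2 site within 50 bases. The same counts over all REPAIRv2 EZH2_A22 sites are not given here.

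Sites in the dCas13d-ADAR EZH2 lists were often close together, and no close pair was in a REPAIRv2 EZH2_A22 list. In the dCas13d-ADAR libraries 24.7% and 25.6% of sites had another listed site within 50 bases, against 0 of 87 and 0 of 101 sites in the REPAIRv2 libraries, which allows a share of up to 3.45% and 2.97% (3 sites of each list; exact permutation p = 0.333). With NT guides it was 25.5% and 25.9% of dCas13d-ADAR sites, against 0 of 46 and 2 of 46 (4.35%) REPAIRv2 sites. The closest pair was 1 base apart in each dCas13d-ADAR library, against 271 and 138 bases in the REPAIRv2 libraries. Longer lists hold more close pairs, so the dCas13d-ADAR lists were also cut to their most highly edited sites at the length of a REPAIRv2 list. The share within 50 bases was then 1.98% to 6.90% over the 4 pairs of libraries, 2 sites in dCas13d-ADAR replicate 1 and 6 in replicate 2, against 0 in REPAIRv2. In dCas13d-ADAR replicate 1 the share, at 2.30% and 1.98%, lay under the limits for the REPAIRv2 lists. In replicate 2, at 6.90% and 5.94%, it lay above them. The lowest dCas13d-ADAR level kept by these cuts was 0.6 to 0.622. List length and level thus changed together, and the part of length alone was not tested. The dCas13d-ADAR sites that REPAIRv2 also listed had another dCas13d-ADAR site within 50 bases in 27.0% of cases in replicate 1 and 21.0% in replicate 2, against 24.6% and 25.7% of the other sites, so the 2 libraries differed in order.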

How the data were processed

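Poly(A)-selected RNA was sequenced from directional libraries, per the labels' protocols. The authors deposited 1 list per library, with a column of A-to-G rates, a fraction between 0 and 1, per the file headers. The submitters' processing notes name cutadapt, STAR 2.6.1b, hg19 and GRCh37, with no role or order. For the caller, thresholds and coverage minimum nothing is given in the sources used here. The lowest level in any list was 0.0597.

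Groups came from the titles. Sites were matched by chromosome and position. Library values were compared by exact permutation and levels at sites in all 4 lists in limma 3.58.1 (R 4.3.3), as log2 odds (0.01 was added to rate and complement), without a replicate block and with Benjamini-Hochberg adjustment over those sites. limma was tested on simulated data with a common spread and a change at only some sites. In the real data all sites in the 4 lists differed in the same direction. Named are all sites in all 4 lists, sites in both REPAIRv2 lists and no dCas13d-ADAR list, and the 10 highest dCas13d-ADAR sites in no REPAIRv2 list. Members and rules were chosen with earlier results of these data known. Alternatives were minimum levels of 0.1 and 0.2, left-out libraries, sites in both libraries, a 50-base match, a replicate block and other transformations. Planned gene lists were not used, since the gene table at hand is of another build. Python 3.11.15, pandas 2.3.3, scipy 1.17.1 and matplotlib 3.10.9 were used.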

Additional observations from a re-analysis of the deposited data

How the results depend on the processing

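The direction held in every alternative for the number of sites, median level, share at 0.5 or more, spacing, level at common sites and the ratio of list lengths between guides, and no exact p passed. Counting only sites that both replicates list, the ratio of site numbers was 99.3, the difference in median level 0.0476 and that in the share at 0.5 or more 7.46 points; the difference in median level was 0.00233 at a minimum level of 0.2 and 0.00404 to 0.0149 with a library left out. Leaving out a library gave 0 to 5 limma calls (0 to 8 on the same 25 sites, chosen after seeing the data), 76.7% to 88.1% for the share of REPAIRv2 sites listed by dCas13d-ADAR, and 0.165 to 0.199 for the excess level of shared sites in dCas13d-ADAR (0.172 with all libraries, 0.160 at a minimum level of 0.2, 0.234 with sites that both replicates list). Sites in at least 3 libraries gave 0 calls. A left-out library leaves 1 sample on its side, assumed to vary like the other side. Position 56365712 on chromosome 12 turned to -0.35 log2 units of odds without dCas13d-ADAR replicate 2 and was 1.42 without replicate 1, the lowest and highest with a library left out. The cause of these shifts was not tested. The replicate block gave 18 of 25 calls, all among the 21. In this balanced layout a block cannot change the difference in mean level, which stays at 0.259 by construction. The replicate 1 minus 2 differences of the editors correlated only weakly across sites (r = -0.22), and nothing in the labels ties the numbers together. The crossed pairing, chosen after seeing the data, gave 23 calls. Unknown depth limits every list.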

Other observations

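Shares of sites per chromosome were compared after the values were seen. Both dCas13d-ADAR EZH2 shares lay above both REPAIRv2 EZH2_A22 shares on 7 of 23 chromosomes and below both on 9, and they overlapped on 7. Chromosome 19 held 12.9% and 12.3% of the dCas13d-ADAR EZH2 sites, against 8.05% (7 sites, 95% Clopper-Pearson interval 3.30% to 15.9%) and 3.96% (4 sites, 1.09% to 9.83%) of the REPAIRv2 EZH2_A22 sites. The interval of REPAIRv2 replicate 1 contains the dCas13d-ADAR shares, and that of replicate 2 does not. With NT guides it held 13.1% and 12.7% of dCas13d-ADAR sites, against 6.52% (3 sites) in each REPAIRv2 list. Chromosome 22 held 5.28% and 5.13% of the dCas13d-ADAR sites, against 1 site in each REPAIRv2 list. On chromosome 15 the order was the other way, with 2.31% and 2.28% of dCas13d-ADAR sites, against 6.90% (6 sites) and 4.95% (5 sites) of REPAIRv2 sites. Chromosome 1 held 11.5% and 11.3% of dCas13d-ADAR sites, against 16.1% (9.09% to 25.5%) and 15.8% (9.33% to 24.4%) of REPAIRv2 sites, intervals that contain the dCas13d-ADAR shares. With NT guides the groups overlapped there, at 11.0% and 11.5% of dCas13d-ADAR sites, against 15.2% and 10.9% of REPAIRv2 sites. No two-sided exact permutation p below 0.333 is possible for any of the 23 chromosomes.

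Single sites chosen after their values were seen departed from the common order. Position 55317828 on chromosome 1 was at 0.182 and 0.240 in the dCas13d-ADAR EZH2 libraries, against 0.5 in REPAIRv2 EZH2_A22 replicate 1, and was not in the list of replicate 2. Position 139818310 on chromosome 9 was in neither dCas13d-ADAR EZH2 list but at 0.643 and 0.8 in the dCas13d-ADAR NT lists, at 0.5 to 0.846 in all 4 REPAIR.t1 lists and at 0.286 in REPAIRv2 EZH2_A22 replicate 2. Position 77082480 on chromosome X was at 0.240 in REPAIRv2 EZH2_A22 replicate 2 and at 0.333 to 0.5 in all 4 REPAIR.t1 lists, and was in none of the 4 dCas13d-ADAR lists.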
